A study of Mus musculus with 960 samples.

Results

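The genes described here encode the proteins of the mouse ribosomes, cytosolic and mitochondrial, and the measurement is whether open chromatin was found at their start sites in cells of a mammary tumour. Members were the protein-coding genes of GENCODE release M1 on build mm9 with a symbol made of Rpl, Rps, Mrpl or Mrps and a digit, without the Rps6k kinases, together with Rplp0, Rplp1, Rplp2 and Rpsa. This took 0.962% of 22350 genes. The cytosolic members were 77 core genes, 53 pseudogene-like copies, 7 paralogues and 1 binding protein, and the 77 mitochondrial members were 76 core genes and 1 copy. Core genes are those whose symbols mark neither a copy, a paralogue nor a partner protein. The data were a deposited list of 50000 windows of 500 bp, each centred on a peak summit of single-cell ATAC-seq, in which the transposase Tn5 cuts and tags accessible DNA. Of these windows, 0.444% lay within 1 kb of a start site of a member, 0.250% at cytosolic genes and 0.194% (97 windows) at mitochondrial genes.

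The cells came from a primary breast tumor of the MMTV-PyMT mouse, in which the mammary tumour virus promoter drives the polyomavirus middle T antigen in mammary epithelium. The labels name no individual animal. All cells were fixed, permeabilised, stained with antibodies, tagged with Tn5 in bulk and sorted into 96-well plates. The stain was EpCam and HIF1a on 8 plates, and EpCam and CD45 on 2 plates, with 96 wells to a plate. EpCam sits on the surface of epithelial cells and CD45 on that of leukocytes, while HIF1a is the part of hypoxia-inducible factor that builds up when oxygen is low. Windows had been called on pooled cells, and whether the CD45 wells entered the pool is not stated. The list is therefore 1 sample with no replicate error, no scores and unknown depth. It gives the presence of a window, not its strength, and allows no comparison between stains. A start site without a window may still have been open below the authors' limit. All 8 markers listed for luminal epithelium (Epcam, Krt8, Krt18, Krt19, Cdh1, Gata3, Elf5 and Ehf) had a window at a distance of up to 1 kb from a start, and 0 of 8 blood-cell markers did, Ptprc (the gene of CD45) included.

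Each ribosome has a large and a small subunit, built of ribosomal RNA and of many proteins. Cytosolic ribosomes translate nearly all messages of the cell, whereas mitochondrial ribosomes make the few proteins encoded in mitochondrial DNA. The proteins of both ribosomes are encoded in the nucleus. Messages of cytosolic ribosomal proteins are known for a stretch of pyrimidines (C or T) at their 5′ end, the terminal oligopyrimidine tract, through which growth signals set their translation, and promoters of mitochondrial proteins are known for sites of the ETS factor GABPA and of nuclear respiratory factor 1 (NRF1).

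The pyrimidine stretch is shown because its share differed most, among the sequence features counted, between cytosolic and mitochondrial genes. A run of at least 8 pyrimidines reaching within 10 bp of the start site that most transcripts share was found at 25 of 77 core cytosolic genes (32.5%, exact 95% interval 22.2 to 44.1) and at 9 of 76 core mitochondrial genes (11.8%, 5.56 to 21.3). The share was 13.5% of all protein-coding genes and 13.0% of those with a window. The stretches below run from 20 bases before to 10 bases from the start site, 5′ to 3′ on the gene's strand, on mm9, with the run in capitals. Rps24 (chr14:25309883-25309912, + strand), Rpl29 (chr9:106331765-106331794, +), Rpl14 (chr9:120480612-120480641, +), Rpl27 (chr11:101303592-101303621, +), Rps16 (chr7:29135651-29135680, +) and Rpl34 (chr3:130433307-130433336, -) were the cytosolic genes with such a run whose summits lay closest to the start. Rps21 (chr2:179992103-179992132, +) and Rpl4 (chr9:64021174-64021203, +) had the run but no window. Mrps21 (chr3:95675433-95675462, -) and Mrpl45 (chr11:97177010-97177039, +) are the mitochondrial genes chosen in the same way.
Rps24: cccccgcgctggggTCCTTCCTTgcgcgtt
Rpl29: ccttggaaCCTTTTTTCTCCgccagcagtg
Rpl14: cacggcagggcgggCCCTCTCTCTTCTCgc
Rpl27: aaaacgcagtgcccgaCCCTCCCTgacgag
Rps16: aattcacacgTCCCCTCTCaggcttcgacg
Rpl34: cgcgccgCCTTCCCTgacgtacttcctgtc
Rps21: cggaggcacgagctaCTTCCTTTCTgcgct
Rpl4: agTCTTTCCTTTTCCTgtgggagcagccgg
Mrps21: ctgcagcgtagCTTCCTCCCgtcgcgggac
Mrpl45: tgcgcgtgcccgcgcgCCCCTCCCCTggag

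These runs were 8 to 14 bases long, and that of Rpl4 was as long as that of Rpl14. Those of Rpl29, Rps16, Rpl34, Rpl4 and Mrps21 ended before the annotated start, so a counted run need not lie in the message. A narrower pattern was CTT between pyrimidines, with its C at most 5 bases from the start. It was found at 10 core cytosolic (13.0%) and 7 core mitochondrial genes (9.21%), against 5.67% of all genes and 5.30% of those with a window. A window lay within 1 kb for 23 of the 25 cytosolic genes with a run, close to the share of all core cytosolic genes given below. Rpl32, with 2 windows and named after its values were seen, had a run of 17 bases, longer than that of any other core cytosolic gene.

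Motifs at the start sites are shown next, for the factors ETS, NRF1 and YY1, of which the ETS motif had a higher share in both groups than over all genes with a window, with intervals above that value. These stretches run from 120 bases before to 20 bases from the start site, with every match to the named motif in capitals. The ETS motif, CCGGAAG, which reads as its reverse complement where it lies on the other strand, is shown for Mrps18a (chr17:46247815-46247954, +), Mrpl52 (chr14:55045626-55045765, +), Rps6 (chr4:86503297-86503436, -) and Rps7 (chr12:29320799-29320938, -). These were the genes of each kind with a match in the printed stretch, no exon before the start, and the summits closest to it.
Mrps18a: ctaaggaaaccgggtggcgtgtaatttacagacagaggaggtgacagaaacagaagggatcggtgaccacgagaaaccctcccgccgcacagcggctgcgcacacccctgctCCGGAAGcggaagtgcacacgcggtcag
Mrpl52: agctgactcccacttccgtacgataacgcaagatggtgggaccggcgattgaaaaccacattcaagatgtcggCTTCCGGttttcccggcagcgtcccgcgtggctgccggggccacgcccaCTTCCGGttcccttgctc
Rps6: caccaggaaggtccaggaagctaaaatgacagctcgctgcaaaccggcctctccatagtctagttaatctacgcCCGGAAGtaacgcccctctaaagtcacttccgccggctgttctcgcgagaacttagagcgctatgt
Rps7: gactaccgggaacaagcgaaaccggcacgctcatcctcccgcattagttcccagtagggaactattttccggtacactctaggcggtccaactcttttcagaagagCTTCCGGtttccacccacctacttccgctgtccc

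The NRF1 motif, with the same 4 letters at both ends of its 10, is shown for Mrps9 (chr1:42907958-42908097, +), Mrpl45 (chr11:97176910-97177049, +) and Rps15 (chr10:79755056-79755195, +). The YY1 motif, AANATGGCG on either strand, is shown for Mrpl42 (chr10:94964542-94964681, -), Mrpl36 (chr13:73468337-73468476, +) and Rpl34 (chr3:130433297-130433436, -). In these genes the matches lay from the far end of the stretch, in Mrpl45, to just past the start site, in Rps15 and Mrpl42.
Mrps9 (NRF1): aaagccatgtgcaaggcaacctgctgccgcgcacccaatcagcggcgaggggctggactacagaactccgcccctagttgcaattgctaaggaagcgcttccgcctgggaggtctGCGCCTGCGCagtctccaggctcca
Mrpl45 (NRF1): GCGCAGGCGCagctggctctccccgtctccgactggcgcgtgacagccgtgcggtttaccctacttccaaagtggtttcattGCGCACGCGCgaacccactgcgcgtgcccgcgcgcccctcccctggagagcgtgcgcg
Rps15 (NRF1): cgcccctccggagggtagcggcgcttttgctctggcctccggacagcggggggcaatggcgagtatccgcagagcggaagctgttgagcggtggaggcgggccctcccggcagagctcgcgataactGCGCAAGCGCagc
Mrpl42 (YY1): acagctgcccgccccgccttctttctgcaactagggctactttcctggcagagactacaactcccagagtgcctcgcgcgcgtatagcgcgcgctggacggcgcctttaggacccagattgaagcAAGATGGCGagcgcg
Mrpl36 (YY1): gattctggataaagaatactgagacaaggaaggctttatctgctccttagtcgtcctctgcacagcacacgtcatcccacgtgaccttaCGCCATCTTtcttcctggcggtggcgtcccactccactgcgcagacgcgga
Rpl34 (YY1): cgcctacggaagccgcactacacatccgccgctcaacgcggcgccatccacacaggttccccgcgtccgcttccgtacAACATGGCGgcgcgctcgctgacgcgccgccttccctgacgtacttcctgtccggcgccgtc

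Open chromatin was found at most genes of both ribosomes. A window edge lay within 1 kb of any start site for 69 of 77 core cytosolic genes (89.6%, exact 95% interval 80.6 to 95.4) and for 69 of 76 core mitochondrial genes (90.8%, 81.9 to 96.2), against 52.9% of all protein-coding genes. Intervals here and below cover counting error alone. Both shares were near that of genes with a CpG-rich start, 85.0%, and both intervals held that value. A start was taken as CpG-rich when the 1000 bp around it had at least 50% GC and an observed to expected CpG ratio of at least 0.6. CpG content was judged at the start that most transcripts share, while a window at any start counted. Of the core genes, 70 of 77 cytosolic (90.9%) and 62 of 76 mitochondrial starts (81.6%) were CpG-rich, against 44.0% of all genes. Among the genes with a CpG-rich start, 64 of 70 and 57 of 62 had a window. Among the others, 5 of 7 cytosolic and 12 of 14 mitochondrial genes had one. The share over all genes without a CpG-rich start, counted the same way, was 27.7%. For Rpl13a among the CpG-rich genes, and for Rps2 and Mrps24 among the others, the window lay only at another start. By subunit, 42 of 45 large and 27 of 32 small subunit genes had a window in the cytosolic ribosome, and 42 of 47 and 27 of 29 in the mitochondrial.

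**Figure D1:**
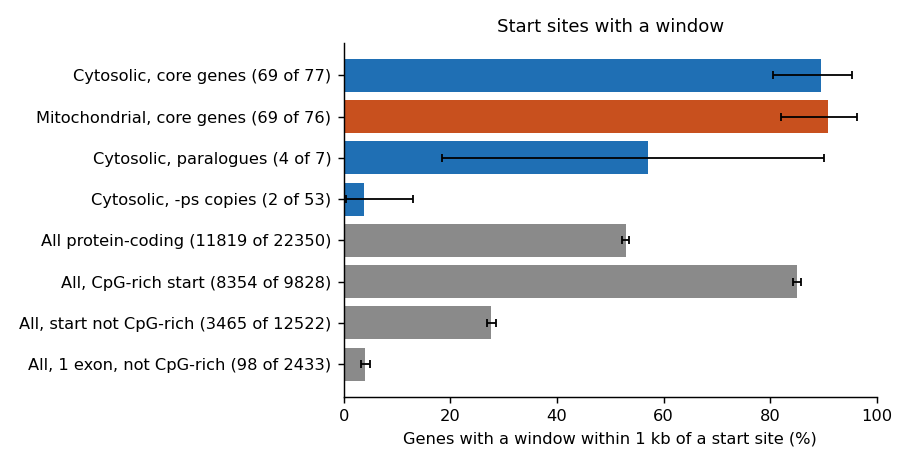
Share of genes for which a window lay within 1 kb of any start site (percent, horizontal bars) for the groups of ribosomal protein genes (blue, cytosolic; orange, mitochondrial) and for all protein-coding genes (grey), with exact 95% intervals for counting error as black lines. Both core groups lie near genes with a CpG-rich start at 85.0%, whereas the pseudogene-like copies lie at 3.77%, beside single-exon genes without a CpG-rich start at 4.03%.

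The literal rule over symbols gave a lower cytosolic share, 76 genes with and 62 without a window (55.1%, 46.4 to 63.5), which was near the background, and 69 of 77 (89.6%) for the mitochondrial genes. Most of the gap to the core came from 53 cytosolic genes whose symbols hold -ps, the mark of a pseudogene. Release M1 lists them as protein-coding, but all 54 such members, Mrps36-ps1 included, were pseudogenes in RefSeq's gene table for a later build. All 53 had a single exon and none had a CpG-rich start, and their median length was 0.483 kb. Rpl30-ps6 had 2 windows (nearest edge at 0.556 kb) and Rpl21-ps3 had 1 (at 0.935 kb, also near a start of Mia2), and no window covered the start of a cytosolic copy. That share, 3.77% (0.460 to 13.0), stood beside 4.03% for all single-exon genes without a CpG-rich start. The copies without a window included Mrps36-ps1 and those of Rpl7a (-ps3, -ps5, -ps8, -ps10), Rpl9 (-ps4, -ps6), Rpl10 (-ps3), Rpl10a (-ps2), Rpl12 (-ps1), Rpl13 (-ps3), Rpl13a (-ps1), Rpl15 (-ps2), Rpl17 (-ps3), Rpl21 (-ps4, -ps6, -ps7, -ps10, -ps11, -ps12, -ps13, -ps14), Rpl23a (-ps1, -ps3), Rpl26 (-ps2, -ps4), Rpl27 (-ps1, -ps3), Rpl27a (-ps1, -ps2), Rpl28 (-ps4), Rpl29 (-ps2, -ps5), Rpl30 (-ps8), Rpl31 (-ps4), Rpl32 (-ps), Rpl36 (-ps3), Rpl37 (-ps1), Rps2 (-ps5, -ps6), Rps6 (-ps1, -ps2), Rps12 (-ps2, -ps3), Rps13 (-ps1), Rps19 (-ps1, -ps2, -ps4, -ps13), Rps26 (-ps1) and Rps27a (-ps2).

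Copies resemble their parent genes, and the authors kept uniquely mapped reads, so uniqueness was measured beside the result. Of all stretches of 50 bases within 1 kb of the start, a median of 81.1% occurred once in mm9 for the cytosolic copies (lowest 2.56%), 95.3% for core cytosolic genes (lowest 78.4%) and 100% for core mitochondrial genes (lowest 82.9%). At least 80% of such stretches were unique for 27 of the 53 copies, 76 of 77 core cytosolic and all 76 core mitochondrial genes. The GC content moved with the same split, with a median of 45.9% for the copies and 56.9% for core cytosolic genes. With starts under 80% left out, 67.6% of the cytosolic members had a window, which lies between the literal and the core share. The part of GC was not tested either.

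**Figure D2:**
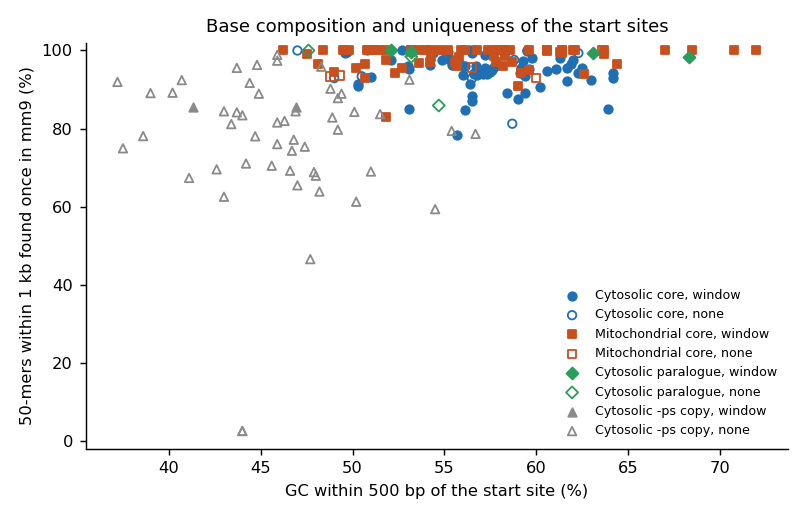
Each point is a cytosolic or core mitochondrial member, placed by the GC content around its start site (horizontal, percent) and by the share of stretches of 50 bases within 1 kb of the start found once in mm9 (vertical, percent). Filled points had a window and open points none. Copies (grey triangles) have a median GC of 45.9% and a median uniqueness of 81.1%, and core genes without a window lie among those with one.

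The 7 cytosolic paralogues, read from a symbol that ends in l, or in l and a digit, after the number, were split. Rpl22l1 had 2 windows (nearest summit 20 bp downstream of the start), Rpl36al 2 (41 bp upstream, where Mgat2 starts 75 bp away on the other strand), Rpl7l1 3 (60 bp downstream) and Rps27l, known as a target of p53, 1 (65 bp upstream). Rpl10l and Rpl39l, known for expression in testis, and Rpl3l, known for muscle, had none. The nearest window lay 1062964 bp from Rpl10l, 22401 bp from Rpl39l and 3235 bp from Rpl3l. Rps19bp1, which the rule over symbols takes although it encodes a partner of Rps19 and not a ribosomal protein, had 2 windows.

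The core genes without a window numbered 15. They included Rpl3 and Rpl4 of the cytosolic large subunit, whose nearest windows lay 7305 and 58302 bp away. Others of the cytosolic ribosome were Rpl23a (2585 bp), Rps21 (15961 bp), Rps29 (9234 bp) and Rps4y2 (29790 bp), a single-exon gene on chromosome 6. In the mitochondrial ribosome they were Mrpl3 (60301 bp), Mrpl22 (2816 bp), Mrpl47 (23825 bp), Mrpl49 (3197 bp), Mrpl53 (6057 bp), Mrps12 (6887 bp) and Mrps34 (1021 bp). Of the 15, 11 had a CpG-rich start, and the 4 others were Rpl4, Rpl23a, Mrpl3 and Mrpl22. The ETS motif was present at Rps21, Mrpl3, Mrpl22, Mrpl53, Mrps12 and Mrps34. Mrps34 lay just outside the limit of 1 kb. Just inside it lay the copies Rpl21-ps3 and Rpl30-ps6, and the core genes with a window whose edge lay farthest away were Rpl15 and Mrpl23, at 0.154 and 0.173 kb.

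Several of these absences were shared with a neighbour that starts on the other strand. Sars2 starts 0.171 kb from Mrps12, Zwilch 0.283 kb from Rpl4, Eme2 0.029 kb from Mrps34 and Fau, itself a ribosomal protein gene, 0.135 kb from Mrpl49, and none of these neighbours had a window within 1 kb. The same held for Ndufb5, a respiratory chain gene whose start lies close to that of Mrpl47. Starts this close have largely the same DNA within 1 kb, so the absences of a pair are not separate observations. Each called peak carries a running number, and the numbers followed genome order up to 109284, with 38400 calls keeping at least 1 window. Between the kept windows on either side of each of the 15 genes, 1 to 10 numbers (median 2) were missing, in gaps of 9242 to 561693 bp. Whether a missing call lay at the gene itself cannot be read from the list. Numbers were also missing around 96.5% of all genes with a CpG-rich start and no window.

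Where a window was present, its summit lay close to the start site. The distance from the start that most transcripts share to the nearest summit had a median of 4 bp downstream for core cytosolic genes (quartiles -72 and 54, negative values upstream) and 15 bp downstream for core mitochondrial genes (-61 and 93). Over all genes with a window the median was -28 bp (-111 and 72). Measured to the nearest of all start sites, a summit lay within 100 bp for 60 of 69 cytosolic genes (87.0%, 76.7 to 93.9) and 54 of 69 mitochondrial genes (78.3%, 66.7 to 87.3), against 66.7% of all genes with a window. The median number of start sites was 4 for core cytosolic genes, 3 for core mitochondrial genes and 3 for all genes with a window. With this nearest start the median distances became -10 and -14 bp, so the side of the start on which the typical summit fell depended on the start chosen.

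**Figure D3:**
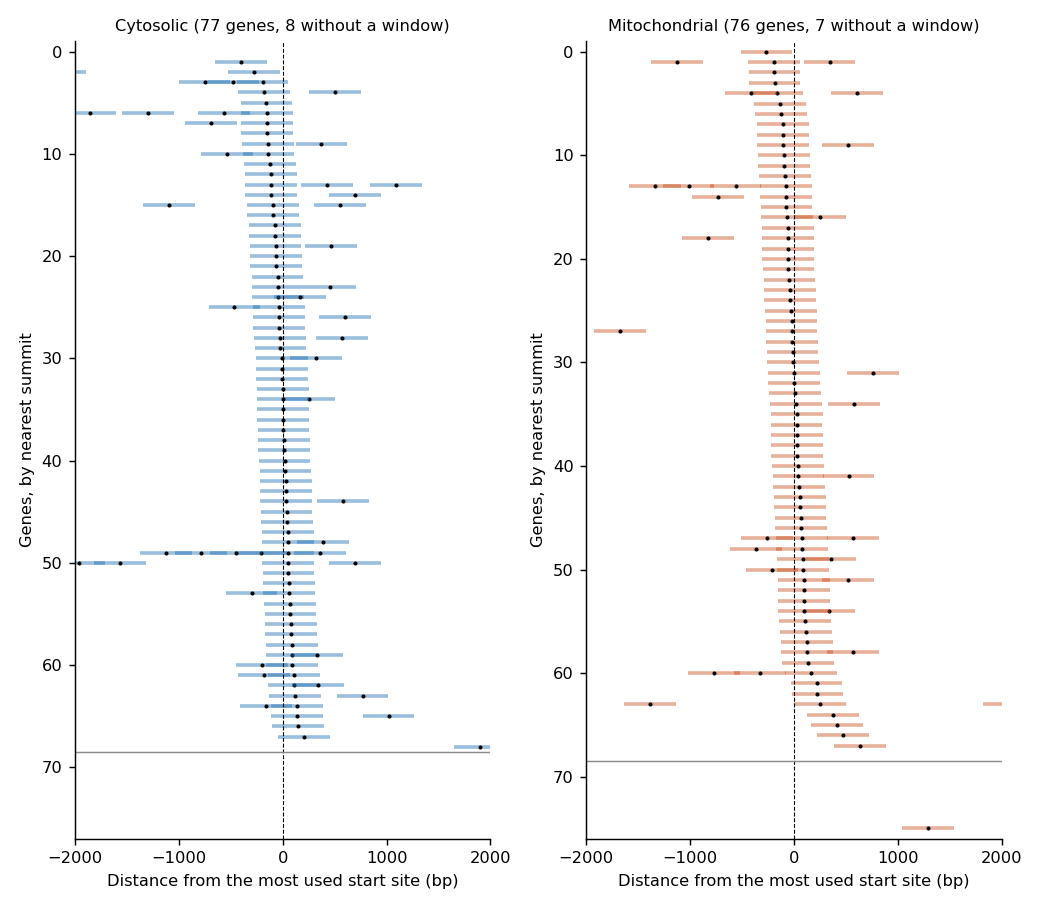
Windows (coloured bars of 500 bp, black dots at the summits) around the most used start site of each core gene, cytosolic on the left and mitochondrial on the right, with distance from the start in bp (negative upstream) and 1 row per gene ordered by the nearest summit. Most summits lie close to the start, and rows under the grey line are the 8 cytosolic and 7 mitochondrial genes without a window within 1 kb of any start.

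A window covered a start site of 68 of 77 core cytosolic and 68 of 76 core mitochondrial genes, against 48.2% of all genes. Counted at the most used start alone, 67 and 68 genes had a window within 1 kb, against 49.5% of all genes. Rpl13a, Rps2 and Mrps24, chosen after their values were seen, had a window only at another start. The nearest summit to the most used start of Rpl13a lay at -7471 bp, at another of its starts and close to one of Flt3l. The nearest summits of Mrps24 and Rps2 lay 7929 and 1896 bp downstream of the most used start. Over all members and other limits, the cytosolic and mitochondrial counts were 74 and 69 within 500 bp (51.7% of all genes) and 85 and 72 within 5 kb (58.1%). They were 75 and 69 with the summit itself within 1 kb (52.4%), and 74 and 68 at the most upstream start (49.9%).

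Most core genes with a window had a single one. Of the 69 such cytosolic genes, 38 had 1 window, 24 had 2 and 7 had 3 or more, a mean of 1.62. For the 69 mitochondrial genes these counts were 48, 15 and 6, a mean of 1.42. Of all genes with a window, 5795 had 1, 3610 had 2 and 2414 had 3 or more, a mean of 1.86. The share with 1 window was 69.6% (57.3 to 80.1) for the mitochondrial, 55.1% (42.6 to 67.1) for the cytosolic and 49.0% for all genes. A called peak that kept 2 or more windows, and so had several summits in the list, was found at 28 of 69 cytosolic genes (40.6%, 28.9 to 53.1), 16 of 69 mitochondrial genes (23.2%, 13.9 to 34.9) and 41.8% of all genes with a window, or 22.1% of all genes. The mitochondrial interval lay below the value for all genes with a window, and the cytosolic interval held it. Gene length moved with these counts only in part, with a median of 3232 bp for core cytosolic, 7733.5 bp for core mitochondrial and 24418 bp for all genes with a window, and its part was not tested.

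**Figure D4:**
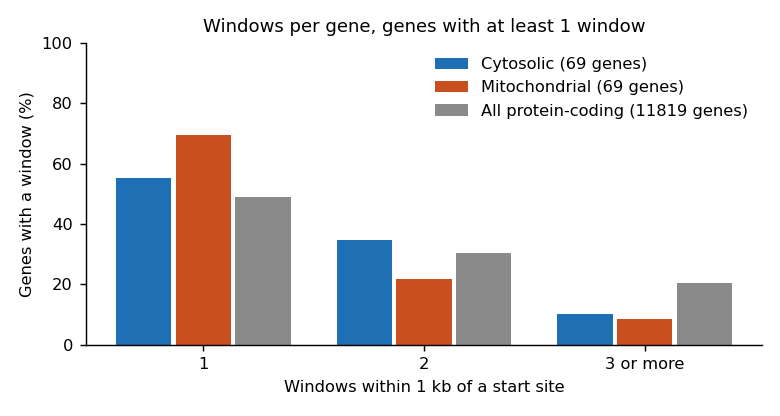
Percent of genes with 1, 2 or 3 and more windows, over the genes that had at least 1, for core cytosolic (blue), core mitochondrial (orange) and all protein-coding genes (grey). The mitochondrial genes have 1 window in 69.6% of cases, the cytosolic genes in 55.1% and all genes in 49.0%.

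At the upper end of the cytosolic genes, Rpl7 of the large subunit had 6 windows, all from 1 called peak. Its summits spread from -1127 bp to past the start, and 5 of the windows were also within 1 kb of a start of Rdh10. Rpl18 had 4 windows from 2 peaks and shared them with Sphk2, which starts 250 bp away on the other strand. Rpl24 had 4 windows from 2 peaks, near different ones of its 8 start sites. Rps12, Rps18 and Rps25 of the small subunit and Rpl35 of the large had 3 each, with the nearest summit at -98, -138, -195 and -115 bp. Rpl7l1 also had 3, and Rpl30 and Rpl29, with 2 each and summits 4 bp downstream and 10 bp upstream, completed the 10 cytosolic members with the most windows.

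Among mitochondrial genes, Mrpl48 had 5 windows from 4 called peaks, near different ones of its 9 start sites, with the nearest summit 2 bp upstream of the most used start. Mrps18b, Mrps31, Mrpl2, Mrpl34 and Mrpl40 had 3 windows each. The nearest summits of the first 4 lay at -167, 79, -80 and -194 bp, and that of Mrpl40 at -64 bp from the nearer of its 2 start sites. Mrps30, Mrpl4, Mrpl41 and Mrpl51 had 2 windows each, with summits at 15, 43, -60 and -64 bp. These 10 mitochondrial genes with the most windows all had a CpG-rich start, as did 57 of all 69 core mitochondrial genes with a window.

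The stalk of the large subunit, which recruits translation factors, is built from Rplp0, Rplp1 and Rplp2. Rplp0 had 2 windows with the nearest summit 70 bp upstream, Rplp1 had 1 window at 65 bp upstream, and Rplp2 had 2 windows, the nearest 89 bp downstream of the most used start. Rpsa of the small subunit, also known as the laminin receptor, had 1 window with its summit at -126 bp. On chromosome X, all 4 members had a window, Rpl39 and Rpl10 with 2 and Rps4x and Rpl36a with 1, beside 39.9% of all X-linked protein-coding genes. With so few genes the exact interval, 39.8 to 100%, held that value. Of 19 members mutated in Diamond-Blackfan anaemia, an inherited failure of red cell production, 18 had a window, with Rps29 the exception. That share, 94.7%, was near the 89.6% of all core cytosolic genes.

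Mitochondrial ribosomal protein genes often began next to another gene. A neighbouring protein-coding gene started within 1 kb on the other strand, pointing away, for 23 of 76 core mitochondrial genes (30.3%, 20.2 to 41.9), 11 of 77 core cytosolic genes (14.3%, 7.35 to 24.1), 8.92% of all genes and 14.8% of genes with a window. The median distance between the starts of such pairs was 0.096 kb for mitochondrial and 0.126 kb for cytosolic genes. A window lay within 1 kb for 20 of the 23 and 10 of the 11, against 87.9% of all genes in such pairs. The pairs of mitochondrial genes included Mrps18c with Helq (27 bp apart), Mrps7 with Gga3 (32 bp), Mrpl18 with the chaperonin gene Tcp1 (37 bp) and Mrpl32 with the proteasome gene Psma2 (0.217 kb), all named after their values were seen. Mrps11 and Mrpl46, whose starts lie 53 bp apart, shared 1 window (chr7:85927753-85928252), the only one within 1 kb of the starts of 2 members. In all, 39 of 97 windows at core mitochondrial genes (40.2%), and 25.0% of those at core cytosolic genes (28 windows) were also within 1 kb of a start of another protein-coding gene, so such a window cannot be given to a single gene.

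Core cytosolic genes, but no core mitochondrial gene, held small nucleolar RNAs (snoRNAs), which guide modifications of ribosomal RNA and are processed from introns. Of the core cytosolic genes, 30 of 77 (39.0%, 28.0 to 50.8) held at least 1 annotated snoRNA gene, 58 in all, against 0 of 76 core mitochondrial genes (upper limit 4.74%) and 1.20% of all genes. Rpl4 held 5, more than any other member. A window lay within 1 kb of a start for 26 of the 30 hosts (86.7%), against 52.9% of all genes. This share was near the 89.6% of all core cytosolic genes. The hosts without a window included Rpl3, Rpl4 and Rpl23a.

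Motif matches were counted in the 300 bases from 250 before to 50 from the most used start, on both strands. A match is a description of the letters and not of a bound site. The ETS motif was found at 23 of 77 core cytosolic (29.9%, 20.0 to 41.4) and 27 of 76 core mitochondrial starts (35.5%, 24.9 to 47.3), against 10.9% of all genes, 17.3% of genes with a window and 19.0% of genes with a CpG-rich start. Both intervals lay above these 3 background shares. The YY1 motif was found at 7 (9.09%, 3.73 to 17.8) and 9 (11.8%, 5.56 to 21.3), against 3.23% of all genes, 5.17% of genes with a window and 5.86% of genes with a CpG-rich start. Both intervals held the CpG-rich value, and the cytosolic one also held that of genes with a window. The NRF1 motif was found at 4 cytosolic (5.19%, 1.43 to 12.8) and 11 mitochondrial starts (14.5%, 7.45 to 24.4), against 6.09% of all genes and 10.2% of genes with a window, a share within both intervals. At least 1 of these 3 motifs was present at 33 of 77 (42.9%) and 41 of 76 (53.9%), against 28.8% of genes with a window. All 11 mitochondrial genes with the NRF1 motif had a window, as did 22 of the 27 with the ETS motif. Over all genes these counts were 1202 of 1362 and 2046 of 2426, and 90.8% of all core mitochondrial genes had a window.

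Among the other motifs, shares lay on both sides of the background. The SP/KLF motif GGGCGG was found at 48.1% of cytosolic (36.5 to 59.7) and 47.4% of mitochondrial starts (35.8 to 59.2), below 64.1% of genes with a window and 73.4% of CpG-rich starts. The NF-Y motif CCAAT was found at 33.8% and 40.8%, against 37.5% of genes with a window. ACGTG, the core of the site that HIF1a binds, was found at 24 cytosolic (31.2%, 21.1 to 42.7) and 20 mitochondrial starts (26.3%, 16.9 to 37.7), against 25.8% of genes with a window. The E-box CACGTG, read by Myc and holding the HIF core within it, was found at 10 (13.0%) and 5 (6.58%), against 10.1%. The TATA box TATAAA, searched on the gene's strand alone, was found at 5 and 4 starts (6.49% and 5.26%, against 4.21%), and the AP-1 motif TGANTCA at 4 and 4 (5.19% and 5.26%, against 4.63%). The ZNF143 motif was found at 5 and 5 (6.49%, 2.14 to 14.5, and 6.58%, 2.17 to 14.7), against 2.66% of genes with a window, a value within both intervals although both shares lay above it.

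**Figure D5:**
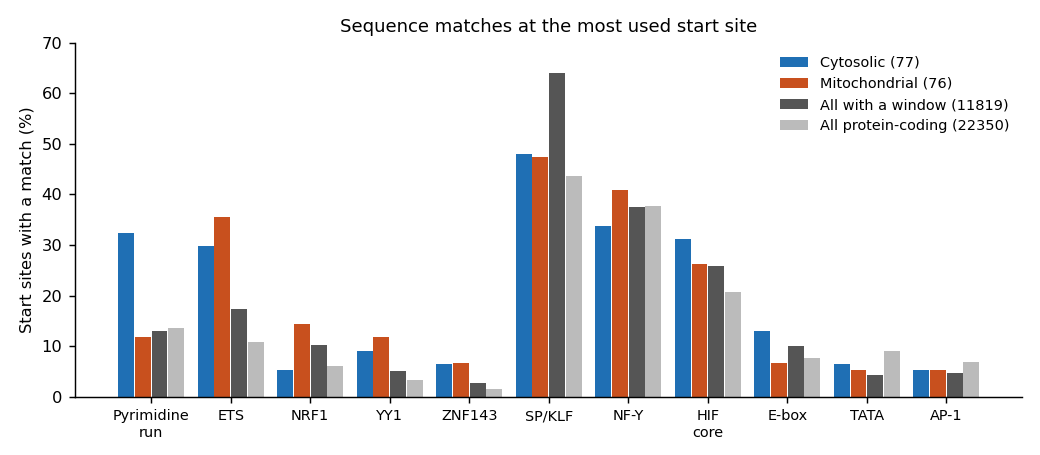
Percent of start sites with a pyrimidine run of at least 8 bases within 10 bp, or with a match to each motif in the 300 bases around the start, for core cytosolic (blue), core mitochondrial (orange), all protein-coding genes with a window (dark grey) and all protein-coding genes (light grey). The pyrimidine run is at 32.5% in the cytosolic genes and 11.8% in the mitochondrial, the ETS motif is above both grey bars in both groups, and the SP/KLF motif is below that of genes with a window.

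The other genes of ribosome production and translation mostly had a window too. All 12 matched genes of RNA polymerase I and its factors, which transcribe ribosomal RNA, had one, with 6 windows at Ubtf. Of 30 genes of ribosomal RNA processing and subunit assembly, 28 had one (93.3%), with 3 each at Fbl (the methyltransferase fibrillarin), Gnl3 and Rrs1, and none at Heatr1 and Rrp12. All 34 factors of cytosolic translation had one, and so did 15 of 17 factors of mitochondrial translation and expression (88.2%), with none at Mtfmt, which formylates the initiator tRNA, and Mtrf1. Of ribosomal proteins and close partners whose symbols the rule leaves out, all 6 mitochondrial ones had a window, with 3 at Dap3, and so had 4 of the 5 cytosolic ones, with 2 at Gnb2l1 (the gene of Rack1) and none at Fau. The genes named from these lists were chosen after their values were seen. Of the 34 cytosolic translation factors, 33 had a CpG-rich start, so their share stands beside 85.0% rather than beside 52.9%.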

How the data were processed

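The assay was single-cell ATAC-seq on fixed, antibody-stained cells of a mouse breast tumor. According to the study's methods and the submitters' processing notes, the authors trimmed adapters, mapped reads to mm9 with Bowtie2 (version 2.1.0), kept unique, good-quality reads, removed duplicates with Picard (version 1.79) and called summits with MACS2 on pooled cells. The deposited list holds positions, with no score, count or height, of the 50000 windows of 500 bp that the authors kept by lowest q-value. Depth and its precision are unknown, and PCR and mapping effects cannot be checked. The notes also name hg19, which was not used.

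Samples were grouped by the antibody label, but the list is pooled, so no groups were compared and no test was run. Start sites came from GENCODE M1 (chromosomes 1 to 19 and X). A gene had a window when a window edge lay within 1 kb of any start site. Python 3.11.15 with numpy 2.4.6, pandas 2.3.3, scipy 1.17.1 (exact Clopper-Pearson 95% intervals) and matplotlib 3.10.9 was used. The counting was tested on simulated data, where 2000 of 2000 start sites were called right. Sequences were read from the mm9 genome. Members, lists and alternatives were chosen with earlier results of these data known. The rule for named genes took members without a window, the 10 of each set with the most windows (ties by nearest summit), those on X, symbols ending in l or in l and a digit or holding -ps, the stalk genes and Rpsa, and for sequences those with the nearest summits. Taf1a and Noa1 had no match in the annotation. Some members that this rule takes are counted but not reported here by name.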

Additional observations from a re-analysis of the deposited data

How the results depend on the processing

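Of 30 alternative values, 26 stayed within the interval of the reported value, which was the exact counting interval for a share and the interval of the median over genes for a median. Part of this count was fixed in advance. The median of 1 window per gene with a window was already the lowest possible, and merging windows could not change it. No mitochondrial member lay on chromosome X, so leaving X out changed nothing there. The cytosolic share over the literal rule (55.1%) became 23.9% with only called peaks that kept 2 or more windows. It became 89.7% (70 of 78 genes) without paralogue-like and pseudogene-like symbols. Without starts under 80% unique stretches of 50 bases it became 67.6%, against 11645 of 20171 genes over all genes. The mitochondrial share (89.6%) became 20.8% with only called peaks that kept 2 or more windows. At that setting the share of all genes was 22.1%, so both groups of members were near the background there. Fewer windows or genes enter each of these alternatives by construction. The median distance of the summit changed sign, from 3.5 to -10 bp (cytosolic) and from 15 to -14 bp (mitochondrial), when measured to the nearest of all start sites, although both stayed within that interval. No paired analysis was possible because the deposited list was called on pooled cells, carries no replicate numbers and comes from no test. No replicate could be left out for the same reason. Depth is unknown, so a start without a window is not shown to be closed.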
